A study of Mus musculus with 4 samples.

Results

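Among Cxcl12- and Adipoq-expressing stromal cells of 16-month-old mice, 438 cells carried the transcripts of both Ccl7 and Ptx3, and these inflammatory stromal cells are described here. In the 16-month library, 6143 of 9229 barcodes had from 200 to 6000 genes and no more than 5% of UMIs from mitochondria. A gate then kept the 2908 cells that held, per 10000 UMIs, at least 80 of Cxcl12 and at least 8 of Adipoq and that had 0 UMIs of Ptprc, the gene of the pan-leukocyte antigen CD45. A UMI is a molecular tag that counts 1 captured transcript. Members had at least 3 UMIs of Ccl7, at least 1 UMI of Ptx3 and fewer than 2 UMIs of Cxcl9, and they made up 15.1% of the gate (exact 95% interval 13.8 to 16.4). They were compared with the 440 gate cells that had 0 UMIs of both Ccl7 and Ptx3, and 2030 gate cells were in neither group. In all 4 libraries of the study together, 24084 of 27907 barcodes passed the quality filter.

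The study profiled endosteal bone marrow of male Col2:Td mice (Col2-Cre with the Rosa26 tdTomato reporter, strain B6SJL/F1) at 1, 1.5, 3 and 16 months of age to follow mesenchymal cells with age. Endosteal marrow was released by protease digestion of metaphyseal bone, and Td+ cells, or the brightest 1% where no Td peak was seen, were sorted and sequenced on a 10x Genomics platform. Every mouse carried the reporter, so that all groups depend on where Col2-Cre has been active. Mice of an age were pooled (2 mice at 1 month, 3 at each other age), giving 1 library per age and no replicates. No test between ages is therefore possible and none is given between cells, which were chosen by their own counts, and intervals cover counting error only, not differences between mice. The 16-month table lists 31054 genes and the other 3 the same 27999. The 16-month library shares 1 or 2 cell barcodes with each of the others, which share 30 to 61 with one another, and none of the 438 members' barcodes occurs in another library. Library preparation and age cannot be told apart.

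Adipoq- and Cxcl12-expressing stromal cells lie along marrow vessels and between blood cells, and they supply Cxcl12 and Kit ligand to hematopoietic progenitors. The study names such cells marrow adipogenic lineage precursors. Ccl7 and its neighbour Ccl2 encode chemokines that draw monocytes through the receptor Ccr2, and Ptx3 encodes a secreted pentraxin that binds microbes and complement. All these genes are induced in stromal cells by IL-1 and TNF through NF-kB, a pathway that also turns on its own inhibitors.

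Ccl2 and Ccl7 lie side by side in the CC chemokine cluster (GRCm38, plus strand, Ccl2 at chr11:82035571-82037453 and Ccl7 at chr11:82045712-82047525), with 8258 bases between them. The other leading genes lie elsewhere, with Ptx3 at chr3:66219910-66225805, Il6 at chr5:30013114-30019981, Cxcl1 at chr5:90891241-90893115 (all on the plus strand) and Tnfaip3 at chr10:19000910-19015657 (minus strand). The 250 bases before the RefSeq start of 4 genes are printed to show the letters ahead of them, on GRCm38.p6. Of these, Ptx3 is high in members by the selection itself, and Il6, Cxcl1 and Nfkbia were called higher in members. Capitals mark matches, on either strand, to the consensus of NF-kB, to AP-1 (TGANTCA) and to C/EBP (TTNNGNAA).
Ptx3: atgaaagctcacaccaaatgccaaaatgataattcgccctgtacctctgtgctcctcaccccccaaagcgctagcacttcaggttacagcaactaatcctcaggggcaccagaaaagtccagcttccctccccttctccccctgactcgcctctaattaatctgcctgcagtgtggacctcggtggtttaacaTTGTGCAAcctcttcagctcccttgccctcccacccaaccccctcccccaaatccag
Il6: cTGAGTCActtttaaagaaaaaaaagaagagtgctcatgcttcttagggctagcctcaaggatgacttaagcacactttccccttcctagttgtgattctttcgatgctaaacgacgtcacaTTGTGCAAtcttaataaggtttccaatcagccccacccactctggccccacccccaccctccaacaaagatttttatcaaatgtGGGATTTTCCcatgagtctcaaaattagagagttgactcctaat
Cxcl1: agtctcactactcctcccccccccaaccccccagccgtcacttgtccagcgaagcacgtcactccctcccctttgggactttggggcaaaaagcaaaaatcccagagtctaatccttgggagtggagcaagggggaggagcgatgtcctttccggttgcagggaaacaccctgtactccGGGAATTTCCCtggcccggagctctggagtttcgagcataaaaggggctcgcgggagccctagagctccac
Nfkbia: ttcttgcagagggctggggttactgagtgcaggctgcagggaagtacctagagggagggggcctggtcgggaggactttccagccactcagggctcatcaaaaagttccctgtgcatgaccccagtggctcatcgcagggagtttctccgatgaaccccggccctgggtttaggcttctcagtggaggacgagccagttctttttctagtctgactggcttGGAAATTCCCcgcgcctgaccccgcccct
These windows lie at chr3:66219637-66219886 (plus strand), chr5:30012864-30013113 (plus), chr5:90890995-90891244 (plus) and chr12:55492648-55492897 (minus), and 4 bases of the Cxcl1 window lie inside the gene as GENCODE draws it. Counted back from the start, the Ptx3 window held a C/EBP match beginning at base -57. The Il6 window held AP-1 at -249, C/EBP at -128 and NF-kB at -44. Cxcl1 had NF-kB matches at -71 and -70 that overlap, and Nfkbia had one at -29. NF-kB matches were in 17 of 96 promoters (17.7%) of the genes higher in members, of which 60 of 84 had an entry, in 9.22% of the promoters of all genes past the expression filter, and in 7.25% of all 32851 promoters. For AP-1 these shares were 9.38%, 4.20% and 6.75%, and for C/EBP 39.6%, 28.2% and 36.8%. A match is a string of letters and not a measured binding site.

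Ccl7 and Ptx3 were spread over the gate cells in a graded way. Ptx3 was common, with a UMI in 81.1% of gate cells, whereas Ccl7 was found in 32.4%. Members held 3 to 67 UMIs of Ccl7 (median 7) and 1 to 128 of Ptx3 (median 8), values that the selection itself sets. Just outside the limit, 85 cells had exactly 2 UMIs of Ccl7, and just inside it 72 members had exactly 3. Levels are given as CPM, the UMIs of a gene summed over cells, per 1000000 UMIs of those cells. Ccl2 was at 1585 CPM (95% Poisson interval 1505 to 1668) in the first and at 2644 CPM (2534 to 2757) in the second, whereas the intervals of Tnfaip3 overlapped (172 to 231 and 198 to 265 CPM). Il6 went the other way across this limit, with 137 CPM (114 to 162) at exactly 2 and 43.7 CPM (30.6 to 60.5) at exactly 3.

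**Figure D1:**
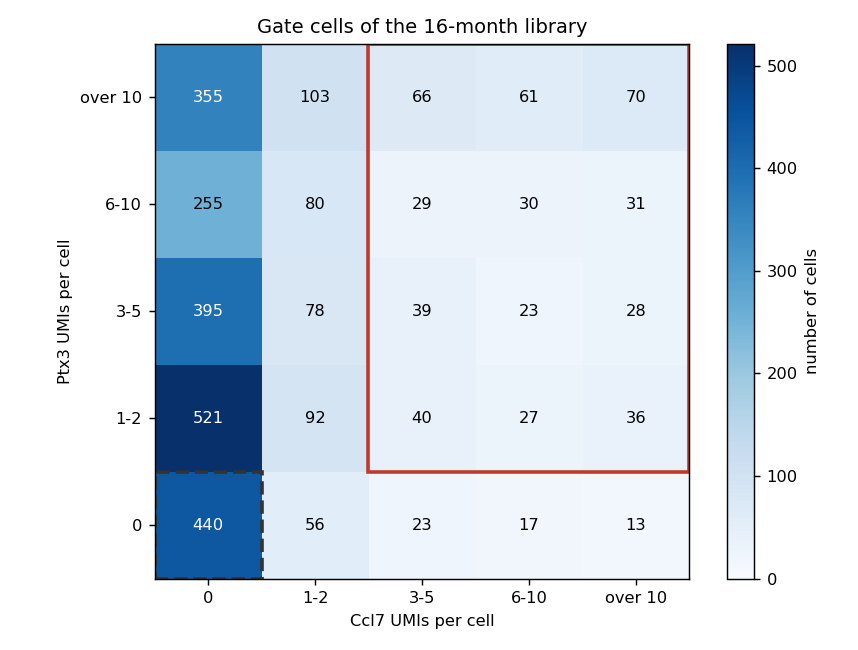
Number of gate cells of the 16-month library by UMIs of Ccl7 per cell (x axis) and of Ptx3 per cell (y axis), with darker blue for more cells. The red frame holds the 438 members and 42 cells with at least 2 UMIs of Cxcl9, and the dashed frame holds the 440 comparison cells.

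Summed over cells with at least 3 UMIs of Ccl7, Ccl2, Cxcl1 and Il6 were above the comparison cells whether or not Ptx3 was present. Il6 in the members with exactly 3 UMIs of Ccl7 was an exception, at 43.7 CPM beside 43.3 CPM in the comparison cells. In the 1526 gate cells with Ptx3 but 0 UMIs of Ccl7, Ccl2 was at 826 CPM (811 to 840), close to the 747 CPM (716 to 780) of the comparison cells. In the 56 cells with 1 or 2 UMIs of Ccl7 and 0 of Ptx3, Ccl2 was at 655 CPM (584 to 731), no higher than in the comparison cells, whereas Cxcl1 (1158 CPM, 1064 to 1258) and Il6 (99.4 CPM, 73.3 to 132) were above their 917 CPM (883 to 953) and 43.3 CPM. In the 50 cells with at least 3 UMIs of Ccl7, 0 of Ptx3 and fewer than 2 of Cxcl9, Ccl2 reached 4727 CPM (4537 to 4923), Cxcl1 2567 CPM (2427 to 2712) and Il6 284 CPM (239 to 335). Members, which have both, had less of these 3 genes, with 2526 CPM for Ccl2 (2482 to 2569), 1942 CPM for Cxcl1 (1904 to 1980) and 140 CPM for Il6 (130 to 150.3). Tnfaip3, an inhibitor of NF-kB, had another pattern, with 221 CPM (182 to 267) in the 50 cells and 287 CPM (272 to 302) in members, and so did Thbs1, with 351 and 577 CPM.

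Depth differed between the groups. Members had a median of 10962 UMIs and 3178 genes per cell, and comparison cells 6746.5 UMIs and 2464.5 genes. Median mitochondrial shares were 3.57% and 3.78%. Shares of cells with a UMI and medians of UMIs per cell are at full depth unless a reduction is named, so they carry the difference in depth. A cell needs enough UMIs to show 3 of Ccl7, so the selection itself favours deep cells, and the ratios were therefore also computed within a window of 8000 to 16000 UMIs that held 328 members and 157 comparison cells. Within this window the expression of several genes climbed with the Ccl7 count. Ccl2 stood at 905 CPM (888 to 922) in cells with 0 UMIs of Ccl7, 1129 (1091 to 1169) with 1 or 2, 2545 (2466 to 2625) with 3 to 5, 2518 (2433 to 2606) with 6 to 10 and 3065 (2977 to 3155) with over 10. Thbs1, which encodes the matrix protein thrombospondin 1, also climbed, from 368 to 687 CPM. Il6, the cytokine, was highest in the cells with 6 to 10 UMIs of Ccl7 (199 CPM, against 60.3 at 0 and 159 above 10). Lepr, a marker of this stroma, varied only from 877 to 935 CPM, and the immediate early gene Fos was lower at high Ccl7 (7034 CPM at 0 and 6026 CPM above 10).

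**Figure D2:**
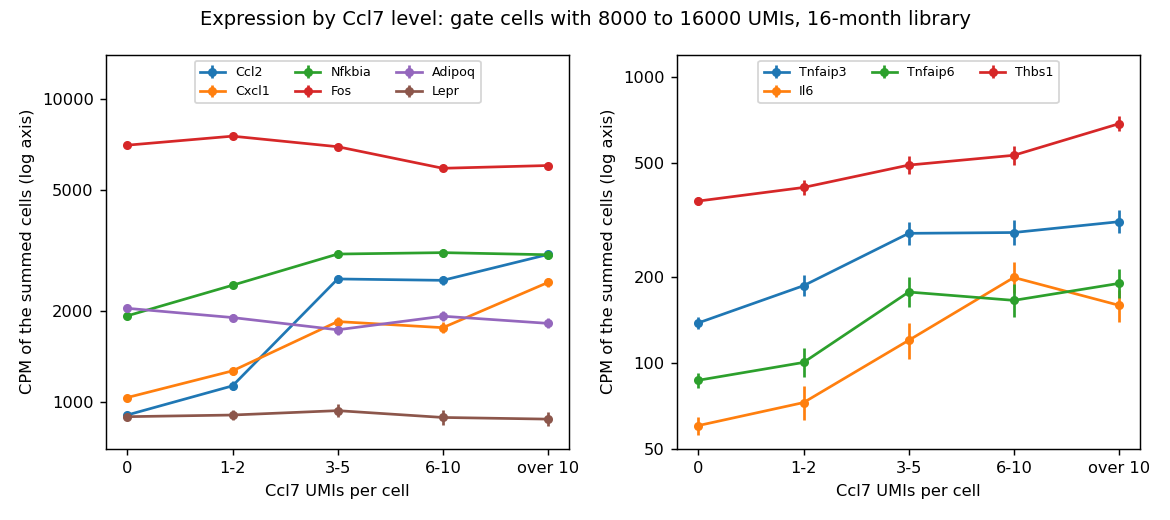
Summed CPM (log axis, bars are 95% Poisson intervals) in gate cells with 8000 to 16000 UMIs, grouped by UMIs of Ccl7 per cell. Ccl2 goes from 905 to 3065 CPM and Thbs1 from 368 to 687 CPM across the 5 groups, whereas Lepr stays between 877 and 935 CPM.

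Of 5779 genes with a mean of at least 20 CPM over both groups, 84 (1.45%) were at least 2-fold higher in members, and 25 (0.433%) at least 2-fold lower, with a counting interval of the ratio that excluded 1. The median log2 ratio of all genes was -0.10, and 2081 of the 5779 had a ratio over 1. Divided by that median, the split became 117 higher and 13 lower. Members are one end of a gradient, and against all 2246 other gate cells with fewer than 2 UMIs of Cxcl9 only 10 genes were at least 2-fold higher and 3 lower. In the depth window 60 genes were higher, 47 of them among the 84, and 30 were lower, 13 of them among the 25.

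Among the chemokines and cytokines of the lists, Ccl2 had the largest ratio. A UMI of Ccl2 was found in 87.4% of members (median 16 UMIs, highest 263) and in 40.7% of comparison cells (median 0, highest 167). The summed level was 3.38 times higher in members (3.23 to 3.54), 3.08 in the depth window, and 2.67 against all other gate cells. Single comparison cells thus overlapped the members, although most were far below them. Of the 3 CC chemokines past the expression filter that were not used for selection, Ccl2 was the only one called, and Ccl19, a ligand of Ccr7, had a ratio of 0.947.

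Cxcl1 and Cxcl2 encode chemokines that draw neutrophils through Cxcr2. Cxcl1 was found in 90.9% of members and 44.8% of comparison cells, with medians of 15 and 0 UMIs and a ratio of 2.12 (2.03 to 2.21) that was 1.70 in the depth window, below the 2-fold limit. Cxcl2 was sparse, with a UMI in 13.7% and 4.09% of cells and a ratio of 2.93 (2.32 to 3.76), and 1 member held 13.9% of its UMIs. Cxcl13, a B cell attractant, had a ratio of 2.14, but this fell to 1.89 without the UMIs of the single highest cell, and turned to 0.827 against all other gate cells. The list of CXC and CX3C chemokines had these 3 among 8 genes called higher, with a median log2 ratio of 0.29 beside -0.10 for all genes. Cxcl12 and Cxcl14, far more abundant, were at ratios of 0.900 and 0.873, the first of them being a gate gene.

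Il6 was found in fewer cells. A UMI was present in 30.8% of members and 8.41% of comparison cells, and the ratio was 3.23 (2.66 to 3.94), with 2.57 in the depth window. The highest member held 74 UMIs, or 10.3% of all those of Il6, and without them the ratio was 2.89. Of the 6 cytokines and growth factors of inflammation past the filter Il6 was the only one called, while Csf1, the macrophage growth factor, had a ratio of 1.30 (1.23 to 1.39), Tnfsf11 (RANKL) 0.972 and Il34, another ligand of the Csf1 receptor, 0.754.

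The NF-kB feedback genes and targets had the largest median ratio of the lists with at least 10 genes past the filter. Of 26 genes past the filter, 7 were called higher, 0 lower, and 24 had a ratio over 1, with a median log2 ratio of 0.67, where 1.45% of all genes were called higher and 2081 of 5779 had a ratio over 1. The largest ratio was that of Tnfaip3, the gene of the ubiquitin-editing protein A20, with 3.57 (3.11 to 4.13) and a UMI in 78.8% of members against 24.1% of comparison cells. Nfkbia, the inhibitor IkBa, was at 2993 CPM in members and 1313 CPM in comparison cells, with medians of 32 and 3 UMIs per cell. Its ratio was 2.28 (2.20 to 2.36), and 2.18 in the depth window. Zc3h12a, an RNase that degrades Il6 mRNA, had a ratio of 2.25, and Rel, an NF-kB subunit, 2.20. Nfkbiz, a nuclear cofactor needed for Il6 transcription, and Irf1 were both at 2.15. Map3k8, a kinase downstream of IL-1 and TNF receptors, stood at 2.05 and lost its call without its single highest cell. In the depth window Rel (1.92) and Irf1 (1.94) were below 2-fold. Against all other gate cells with fewer than 2 UMIs of Cxcl9, Tnfaip3 was at 2.025. The other called genes of the list were below 2-fold there, from Irf1 (1.44) to Rel (1.62), with Nfkbia at 1.54. The adhesion genes Icam1 (1.31) and Vcam1 (1.18), also NF-kB targets, differed much less.

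The receptors and adaptors for IL-1, TNF and Toll ligands differed little. Of 13 past the filter only Tnfrsf12a, the receptor for the TNF family ligand TWEAK, was called, with a ratio of 3.40 (2.66 to 4.40). Il1r1, the receptor for IL-1, was at 186 CPM in members and 188 CPM in comparison cells (ratio 0.991, 0.890 to 1.10). Tnfrsf1a, the main TNF receptor, had a ratio of 1.29 and Tlr4 one of 0.768 with an interval of 0.584 to 1.01.

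Tnfaip6 encodes TSG-6, a secreted hyaluronan-binding protein. A UMI was found in 226 of 438 members and 66 of 440 comparison cells, with a ratio of 3.42 (2.85 to 4.14). It was the only one of 17 pentraxin, acute phase and innate effector genes called, and the median log2 ratio of this list was -0.04. Haptoglobin (Hp), at 6250 and 6431 CPM, and complement C3, with a ratio of 0.850, were not higher in members.

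**Figure D3:**
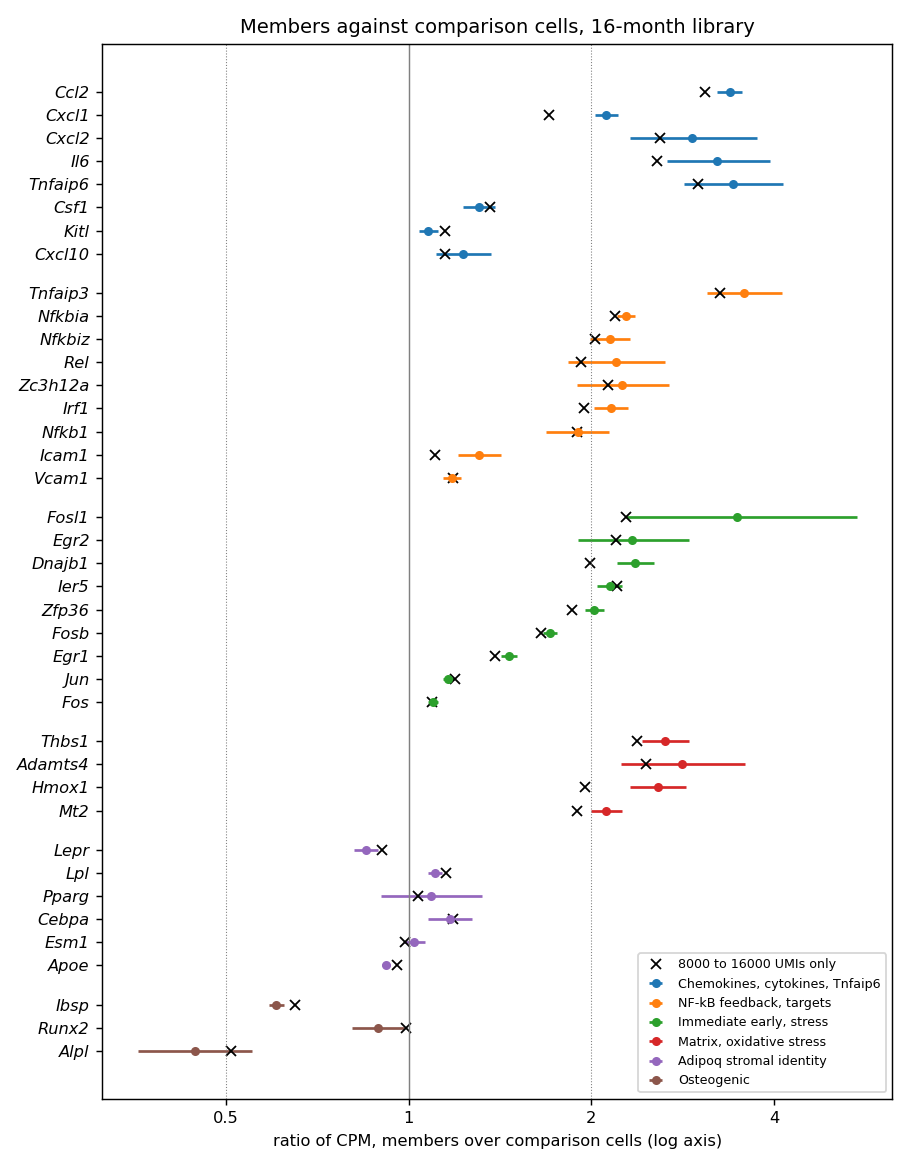
Ratio of CPM in members over comparison cells of the 16-month library for 39 genes (log axis), as points with 95% counting intervals, and as crosses for cells with 8000 to 16000 UMIs only. Ccl2, Il6, Tnfaip3 and Tnfaip6 lie above 3, the 6 identity genes drawn lie between 0.849 and 1.17 (the 25 of the list between 0.669 and 1.64), and Alpl lies at 0.445.

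Immediate early and handling stress genes, which protease digestion of tissue is known to induce, moved in the same direction. Of 37 past the filter 34 had a ratio over 1, 5 were called higher and the median log2 ratio was 0.55, beside 2081 of 5779 over 1 and 1.45% called higher among all genes. The members called were Fosl1 (3.47), an AP-1 subunit, Dnajb1 (2.36), a heat shock cochaperone, Egr2 (2.34), Ier5 (2.14) and Zfp36 (2.02), whose protein destabilises cytokine mRNAs. In the depth window Dnajb1 was at 1.99 and Zfp36 at 1.86. The most abundant genes of this list differed least, with Fos at 6507 and 5928 CPM (ratio 1.10) and Jun at a ratio of 1.16. The part of tissue handling in the inflammatory gene levels was not tested.

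STAT3 targets and oxidative stress genes shifted less. Of 17 JAK-STAT3 genes 2 were called, Myc (2.67, 2.40 to 2.97) and Il4ra (2.03, lost without its single highest cell), and the median log2 ratio was 0.45. Socs3, the classic feedback inhibitor of Il6 signalling, had a ratio of 1.37. Of 16 metallothionein and oxidative stress genes, Hmox1 (2.57), which breaks down heme, and Mt2 (2.12) were called, with 1.95 and 1.89 in the depth window.

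Among 31 genes of matrix, proteases and hyaluronan past the filter, Thbs1 and Adamts4 were called higher in members. Thbs1 had a ratio of 2.65 (2.43 to 2.89), and Adamts4, an aggrecan-cleaving protease, 2.82 (2.24 to 3.58). The median log2 ratio of the list was 0.01, and the collagens did not share the shift, with Col1a1 at 0.738 and Col1a2 at 1.06.

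Outside the lists, the largest ratio was that of Noct at 4.52 (3.10 to 6.79), the gene of nocturnin, followed among genes without hemoglobin by Dusp10 (3.45), a phosphatase of stress kinases, Rnd1 (3.25), a small GTPase, Tgif2 (3.04) and Rgs16 (2.98), which speeds the turn-off of G proteins. Ifrd1 was the most abundant of the genes outside the lists in the leading 20, with a median of 21 UMIs in members and 1 in comparison cells (ratio 2.92, 2.79 to 3.07), and the pseudokinase gene Trib1 had medians of 4 and 0 (ratio 2.88). Among the 40 higher genes followed through 13 other settings, 8 stayed at least 2-fold higher in each, namely Ccl2, Il6, Tnfaip3, Tnfrsf12a, Fosl1, Dusp10, Ifrd1 and Noct. Of the 84, 16 lost the call without the UMIs of their single highest member cell.

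The genes that define the stroma did not differ by 2-fold. Of 25 Adipoq stromal identity genes past the filter 0 were called in either direction, 10 had a ratio over 1 (2081 of all 5779 genes did), and the median log2 ratio was -0.08. Lepr was found in 99.5% of members, with a median of 9 UMIs against 6 in comparison cells, and its ratio was 0.849 (0.811 to 0.889). Lpl, lipoprotein lipase, had a ratio of 1.10, Pparg 1.09, Cebpa 1.17 and Esm1 1.02. Grem1, a BMP antagonist, was the highest of the list at 1.64 and Igf1 the lowest at 0.669. Kitl, the ligand that keeps hematopoietic stem cells, was at 1645 and 1527 CPM, and 0 of 14 niche and osteoclast factors were called, although Vegfa (1.63) and Bmp4 (1.50) were the highest of them. By these markers the members match the stromal label. The inflammatory label rests on single genes such as Ccl2, Cxcl1 and Il6, and most genes of their lists were not called. Those called higher were 1 of 3 CC chemokines, 3 of 8 CXC and CX3C chemokines and 1 of 6 inflammatory cytokines. Of 17 pentraxin, acute phase and innate effector genes, 1 was called, beside 1.45% of all genes.

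Osteogenic genes were on the low side. All 11 past the filter had a ratio under 1, as did 3698 of all 5779 genes, with a median log2 ratio of -0.47 beside -0.10, and 1 was called lower. Alpl, alkaline phosphatase, was at 30.4 CPM in members and 68.3 CPM in comparison cells, a ratio of 0.445 (0.358 to 0.552) that was 0.510 in the depth window. Ibsp, bone sialoprotein, was at 2033 and 3358 CPM (0.605). Spp1, osteopontin, had a ratio of 0.704 that became 0.974 in the depth window, and Bglap, osteocalcin, went from 0.674 to 1.40, so that these 2 depended on the depth of the cells. Among the other genes with the smallest ratios were the cell adhesion gene Ncam1 (0.348), Scd1 (0.420), a desaturase of fatty acids, Gpc1 (0.461), Slit2 (0.462) and Fbln1 (0.470), and the unnamed transcripts Gm26802 (0.281) and Gm12216 (0.294).

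Interferon-stimulated genes were not higher in members. Of 20 past the filter 0 were called and 5 had a ratio over 1, beside 2081 of all 5779 genes, with a median log2 ratio of -0.20. The selection removed cells with Cxcl9, an interferon-gamma target, from the members but not from the comparison cells. The summed level of 36 such genes was 1406 CPM (1374 to 1439) in members, 1568 (1523 to 1615) in all comparison cells and 1372 (1328 to 1417) in the 418 comparison cells with fewer than 2 UMIs of Cxcl9, so that members lay below the first and within the counting error of the second. The 224 gate cells with at least 2 UMIs of Cxcl9 were at 3911 CPM (3837 to 3987). The Ccl7 and Ptx3 limits were met by 42 of these 224 cells (18.8%, 13.9 to 24.5) and by 16.3% (14.9 to 17.8) of the 2684 other gate cells. These 42 cells had 2878 CPM of Ccl2 but less Tnfaip3 (173 CPM, 142 to 209) than the members.

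The list of senescence and growth arrest (13 genes past the filter) had a median log2 ratio of -0.09, with Cdkn1a at a ratio of 1.82 (1.65 to 2.01). The early progenitor list had 2 genes past the filter, neither of them called, and the cell cycle list 3, at ratios of 0.952 to 1.03. Of 9 lipid storage genes Scd1 was the only one called, as lower, and Fabp4 had a ratio of 1.88.

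Of 7 lists of markers of other cell types, 3 summed lower in members and 4 higher, the erythroid list by most. The 18 macrophage and monocyte markers summed to 97.2 CPM in members and 158 CPM in comparison cells, with Adgre1 at 0.195 CPM and Itgam at 0 UMIs in members. The 12 neutrophil markers summed to 220 and 334 CPM, the 10 B and T lineage markers to 24.4 and 95.4 CPM with 4 of them at 0 in members, and the 9 endothelial markers to 34.7 and 24.3 CPM with 0 past the filter. Mural markers were at 292 and 209 CPM and chondrocyte markers at 223 and 207 CPM, each list with 1 gene at 0 in members and 2 past the filter, none of them called. The lower level of Lyz2 (0.358) and of the immunoglobulin gene Igkc (0.260) in members belongs to this contrast. The 8 erythroid markers had 2475 CPM in members and 827 CPM in comparison cells, and 5 of 5 past the filter were called higher. A single member held 6630 of the 12455 hemoglobin UMIs of all members, and without it hemoglobin was at 1140 CPM against 809 CPM, with a median of 3 per cell in both groups. The 4 hemoglobin genes are near-identical pairs whose reads the counting may have split.

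The transcripts were also counted in other cells of the same library, since free RNA gives UMIs in cells that do not express a gene. Cells with at least 3000 UMIs were reduced to that number, and the others were left out. Ccl2 was then found in 7.30% (4.31 to 11.4) of neutrophil-gate cells, Ptx3 in 5.15% (2.69 to 8.82) and Ccl7 in 2.15% (0.700 to 4.94). The 308 cells of that gate had a median of 5885.5 UMIs before this step, and 233 of them were kept. Among the 2743 gate stromal cells kept the shares were 46.5%, 64.5% and 22.0%, and among members 76.9%, 80.4% and 84.2%. Comparison cells had Ccl2 in 31.0% (26.1 to 36.2), above the neutrophil level. Ccl7 was also high in the 30 cells of a macrophage gate (266 CPM). In the 28 of them kept for the reduction, Ccl7 was found in 21.4% (8.30 to 41.0) and Tnfaip3 in 53.6%. Of 46 endothelial-gate cells 44 were kept, and Cxcl1 was present in 36.4% of these. Outside the stromal gate a further 218 cells met the Ccl7 and Ptx3 limits, with no limit on Cxcl9, of which 205 fell short on Adipoq, 13 on Cxcl12 and 24 had a UMI of Ptprc, with some cells counted more than once.

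The members did not form a separate cluster. When gate cells with at least 3000 UMIs were reduced to that number and placed by 2000 variable genes without those used for selection, 29.4% of the 20 nearest neighbours of members were members, who made up 16.0% of the cells, and 5.43% were comparison cells, who made up 12.5%. For comparison cells the shares were 9.74% and 22.0%. Only 22 of 438 members had mostly members as neighbours.

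The same limits were met by some gate cells at each age. They took 11 of 166 gate cells at 1 month (6.63%, 3.35 to 11.5), 166 of 1182 at 1.5 months (14.0%, 12.1 to 16.2), 34 of 348 at 3 months (9.77%, 6.86 to 13.4) and 438 of 2908 at 16 months. The gate cells differed in depth, with medians of 7255, 5981.5, 3938.5 and 9632 UMIs. Cells were then reduced to 3000 UMIs before gating and selection, and cells with fewer UMIs were left out. This step kept all cells past the quality filter at 1 and 1.5 months. It kept 3868 of 4180 at 3 months and 5625 of 6143 at 16 months. The gate then held 185, 1142, 292 and 2551 cells. The shares were 2.70% (0.883 to 6.19), 7.62% (6.15 to 9.31), 6.85% (4.23 to 10.4) and 5.68% (4.82 to 6.65), so that 16 months was no longer the highest. Cells that met the limits were thus counted at every age, and no order of the ages is read from the shares. Meeting the limits does not make the cells of each age alike in other genes.

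**Figure D4:**
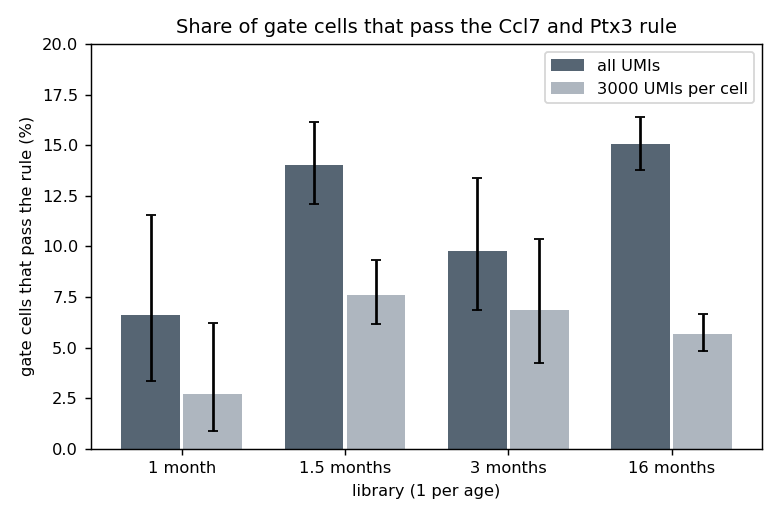
Percent of gate cells that met the Ccl7 and Ptx3 limits in the library of each age (bars, with exact 95% binomial intervals), with all UMIs (dark) and with 3000 UMIs per cell (light, without cells that had fewer). The 16-month bar goes from 15.1% to 5.68% and the 1.5-month bar from 14.0% to 7.62%.

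Many of the 84 genes were also higher in the members of the other libraries. Of those with at least 20 CPM there, 66 of 70 had a ratio over 1 at 1.5 months (94.3%, beside 42.2% of all genes), 59 of 71 at 3 months (83.1% beside 46.4%) and 50 of 70 at 1 month (71.4% beside 52.1%). In 58 of 84 the ratio was over 1 at both 1.5 and 3 months (69.0%, beside 21.8% of all genes), and in 41 at all 3 ages (48.8% beside 12.6%). Of the 25 lower genes, 15 of 18 were under 1 at 1.5 months (83.3%, beside 57.8% of all genes), 15 of 20 at 3 months (beside 53.6%) and 13 of 19 at 1 month (68.4% beside 47.9%). The 2-fold limit itself called 37 genes higher (0.682%) and 55 lower (1.01%) at 1.5 months, 109 (2.05%) and 128 (2.41%) at 3 months, and 175 (3.16%) and 86 (1.55%) at 1 month, where there were 11 members and 31 comparison cells.

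The ratio of Ccl2 was 3.35 (1.88 to 6.04) at 1 month, 4.59 (4.26 to 4.95) at 1.5 months and 4.27 (3.77 to 4.84) at 3 months. Its level in the 1-month members, 351 CPM, was far below the 3183, 3999 and 2526 CPM of the other ages. Myc had ratios of 2.08, 2.24 and 2.38 at 1, 1.5 and 3 months, Nfkbia 1.54, 1.79 and 2.06, and Ifrd1 2.00, 2.00 and 2.94. These 3 genes thus had ratios over 1 in every library. Tnfaip3 had 2.36 (1.74 to 3.23) and 3.45 (1.80 to 6.70) at 1.5 and 3 months, with 2 UMIs in each group at 1 month. Tnfaip6 had ratios of 1.40 (0.742 to 2.56) at 1 month, 1.31 (1.07 to 1.61) at 1.5 months and 1.99 (1.11 to 3.48) at 3 months, beside 3.42 at 16 months, a difference that was not tested. At 1.5 months its level in the comparison cells was 144 CPM beside 46.8 CPM at 16 months. Alpl was lower in members of each library, with ratios of 0.342, 0.444 and 0.570 at 1, 1.5 and 3 months, the last with an interval of 0.258 to 1.14. Il6 was higher at 1.5 months (2.63, 2.06 to 3.40) and 3 months (2.07, 1.02 to 4.13) and lower at 1 month.

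**Figure D5:**
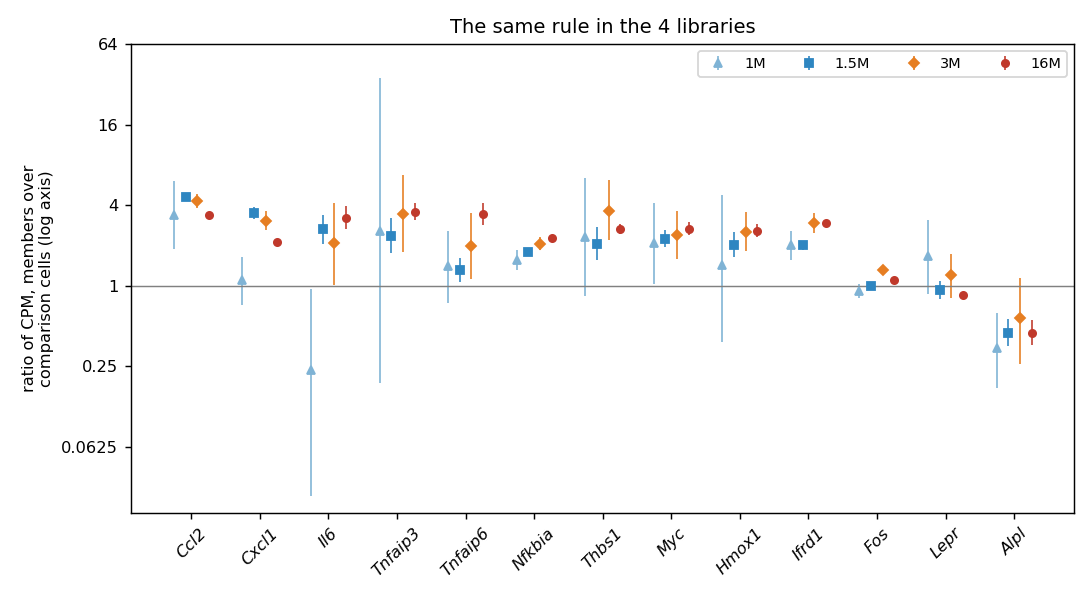
Ratio of CPM in members over comparison cells (log axis, bars are 95% counting intervals) for 13 genes in each of the 4 libraries. Ccl2, Myc, Nfkbia and Ifrd1 are above 1 at every age, Alpl is below 1, and the intervals at 1 month are wide.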

How the data were processed

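The deposited values are raw UMI counts per gene and cell barcode, with no normalization. The authors made them with Cell Ranger 3.0.2 on mm10 with the reporter added (Seurat 2 is named in the submitters' processing notes). Barcodes outside the limits on genes and mitochondrial UMIs were still present, so those limits had not been applied. An earlier selection of barcodes as cells was not examined. No column was left unmapped to a sample. Members, gene lists (25 lists, 478 genes) and alternatives were chosen with earlier results of these data known. Here counts were summed over the cells of a group and scaled to CPM, with exact Poisson intervals, exact Clopper-Pearson intervals for shares, and exact conditional binomial intervals for ratios of 2 sums, all at 95%. A gene was called when its ratio was at least 2 or at most 0.5, with an interval without 1, among genes with a mean of at least 20 CPM. UMIs of 1 cell are not independent draws, so these intervals are narrower than the spread between cells. For shares of cells with a UMI in several cell types, each cell with at least 3000 UMIs was reduced at random to that number. Cells with fewer were left out, here and in every other use of the reduction. Cells of 3 further gates had 0 UMIs of Adipoq. Neutrophil-gate cells held at least 20 UMIs each of S100a8 and S100a9 per 10000, macrophage-gate cells at least 2 UMIs each of C1qa and C1qb, and endothelial-gate cells at least 1 UMI each of Cdh5 and Pecam1. Doublets were not called beyond the limit of 6000 genes, and an alternative with fewer genes and no UMI of genes of other cell types was run. Some listed genes are not reported here. Genes named are those of the lists and the 20 largest and 15 smallest ratios. Alternatives are given after this section. Gene positions are those of GENCODE M21, and promoters those of RefSeq GRCm38.p6. Python 3.11.15, numpy 2.4.6, scipy 1.17.1, pandas 2.3.3 and matplotlib 3.10.9 were used.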

Additional observations from a re-analysis of the deposited data

Results flagged for a closer look

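Il6 stood out because its ratio went opposite ways in 2 libraries, with intervals on either side of 1. It was 0.233 (0.0266 to 0.949) at 1 month, from 2 UMIs in 11 members and 22 UMIs in 31 comparison cells, and 3.23 (2.66 to 3.94) at 16 months. The difference between the libraries was not tested, since each age has 1 library.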

How the results depend on the processing

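The count of 84 higher genes became 144 with each cell reduced to 3000 UMIs, 10 with all other gate cells with Cxcl9 below 2 as comparison, and 202 with no filter on low values. The count of 25 lower genes became 84, 3 and 428 under these settings, 55 with the mean of single cells, 39 with a gate of at least 160 of Cxcl12 and 16 of Adipoq, 10 with a mean of at least 50 CPM, and 13 with ratios divided by their median. The reduction to 3000 UMIs kept all 438 members but 342 of 440 comparison cells, since cells with fewer UMIs were left out. That setting thus changed the comparison cells as well as the depth. The share of members among gate cells at 16 months (15.1%) became 5.68% with 3000 UMIs per cell, 18.0% and 9.59% with at least 2 or 6 UMIs of Ccl7, 16.5% with no limit on Cxcl9, 13.5% with at most 10% mitochondrial UMIs and 13.3% with the stricter gate. At 3000 UMIs the shares at 1, 1.5 and 3 months were 2.70%, 7.62% and 6.85%, and with at least 2 UMIs of Ccl7 the share at 1.5 months was 18.1%. Ratios that crossed 1 were those of Hba-a1 (0.698), Hbb-bt (0.576), Hbb-bs (0.570), Hba-a2 (0.451) and Cxcl13 (0.827) against all other gate cells, Hbb-bt (0.985), Hbb-bs (0.975) and Hba-a2 (0.986) with the stricter gate, and Hbb-bs (0.963), Hba-a2 (0.921) and Car2 (0.814) with the mean of single cells. The cause was not tested. Comparison cells with Cxcl9 below 2, the removal of the member with most hemoglobin and the scaling by the median were added after the data were seen. No paired analysis was possible because each age has 1 library, as far as ages are compared. Members and comparison cells make 4 pairs within libraries, whose ratios stand side by side in the report, and no test was run over these pairs since the cells were chosen by the counts it would compare. The 11 members at 1 month and the 34 at 3 months limit the ratios there.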
